A study of Mus musculus with 12 samples.

Results

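Small nuclear and small nucleolar RNAs were described in sorted mouse myeloid progenitors, bone marrow cells gated as Lineage-negative, Sca1-negative and c-Kit-positive. The members were chosen by name and by count: a row of the gene table counted as a member when its symbol began with Snord, Snora or Rnu and a number, in capitals or not, or was a U with a number such as U1, U3 or U4atac, and when it held at least 10 counts summed over the 12 libraries. That selection, on the summed counts, kept 86 of the 241 rows whose names matched, out of 33924 rows in all, and 112 of the matching rows had 0 counts in every library. The 86 members were 31 C/D box RNAs, 46 H/ACA box RNAs and 9 spliceosomal RNAs. Just inside the limit of 10 stood Snora2b with 11 counts and SNORA26 and Snora34 with 12 each, and just outside it Snora16a, SNORA75, SNORD16 and U8 with 9 each.

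The 12 libraries fell into 4 groups of 3. Old het libraries were labelled old chronic and came from Mx+ Wt1fl/+ mice, old control libraries from Mx+ Wt1+/+ mice under the same label, and the young het and young control libraries had the same 2 genotypes under the label young acute. All 4 groups thus carried Mx+, the usual short name of a Cre transgene under the interferon-inducible Mx1 promoter, which acts in blood cells and beyond, so the controls share any effect of it. The treatment field of the labels says none, and the labels do not say what chronic and acute stand for, so age cannot be told apart from what those words name. Nothing in the labels says which libraries came from separate animals, so the p-values measure only the spread between these libraries.

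C/D box RNAs carry the protein fibrillarin and guide 2′-O-methylation, mostly of ribosomal RNA, while H/ACA box RNAs carry dyskerin and guide the change of uridine to pseudouridine. A few act in the cutting of the ribosomal precursor instead, U3 above all, which is the C/D box RNA at the centre of the small subunit processome. U1, U2, U4, U5 and U6 form the major spliceosome, and U11, U12, U4atac and U6atac take the place of most of them in the minor one. Most vertebrate snoRNAs are cut out of introns of host genes, and none of these RNAs normally ends in a long poly(A) tail. Library preparation used a Lexogen kit for 3' mRNA-seq, a method that primes on runs of A, so a count here reports the fraction of an RNA that such priming reached and not its full amount in the cell.

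Of the 86 members, 33 had an entry with the identical symbol in the GENCODE M21 annotation, 19 C/D box and 14 H/ACA box RNAs; the other 53, named in capitals or as U RNAs, are shown by name only. Across the comparisons described here 14 distinct members passed the test at least once. The sequences of 5 of them are printed from GENCODE M21 so that the RNAs behind the calls can be seen. For the C/D RNAs, capitals mark the C box TGATGA (looked for in the first 20 bases) and the D box CTGA (last 14 bases). For the H/ACA RNAs, capitals mark the last ACA within the last 8 bases. Snora20 and Snora23 are added because both had 0 counts in all 3 young het libraries. In Snora23 ACA copies overlap at the end and the capitals mark the later one. The earlier one lies as far from the end as the marked ACA of the other H/ACA RNAs printed.
Snord49b: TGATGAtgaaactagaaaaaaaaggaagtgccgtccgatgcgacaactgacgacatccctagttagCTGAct
Snord89: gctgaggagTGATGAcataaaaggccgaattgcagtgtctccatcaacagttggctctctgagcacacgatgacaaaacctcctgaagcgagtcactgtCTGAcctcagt
Snora7a: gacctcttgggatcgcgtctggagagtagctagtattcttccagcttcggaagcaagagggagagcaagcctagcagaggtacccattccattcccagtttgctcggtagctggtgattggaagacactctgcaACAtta
Snora30: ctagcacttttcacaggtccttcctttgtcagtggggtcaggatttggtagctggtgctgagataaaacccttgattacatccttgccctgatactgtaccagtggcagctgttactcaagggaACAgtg
Snora68: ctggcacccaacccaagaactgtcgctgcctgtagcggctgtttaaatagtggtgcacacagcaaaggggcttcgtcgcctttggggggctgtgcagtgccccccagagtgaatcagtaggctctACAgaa
Snora20: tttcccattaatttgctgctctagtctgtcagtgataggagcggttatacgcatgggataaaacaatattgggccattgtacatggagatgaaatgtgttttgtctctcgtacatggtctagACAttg
Snora23: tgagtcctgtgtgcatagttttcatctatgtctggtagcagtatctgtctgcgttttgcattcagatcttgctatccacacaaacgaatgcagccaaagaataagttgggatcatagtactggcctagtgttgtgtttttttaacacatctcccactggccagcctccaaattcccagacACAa
Snord49b is 72 bases long and Snord89 110, whereas the 5 H/ACA RNAs run from 128 to 184 bases. Searched on the transcript strand only, TGATGA stood in 13 of the 19 matched C/D RNAs against 21.7% of the 1507 snoRNA transcripts of the annotation, and CTGA in 19 of 19 against 30.9%. ACA stood in the last 8 bases of 14 of 14 matched H/ACA RNAs against 46.8%. The 1507 transcripts pool both classes, so RNAs already named by class would lie above these shares. Nothing is read from the differences. Snord49b, the most counted C/D box member, holds a run of 8 A after its C box, and the median longest A run over all annotated snoRNA transcripts was 3. Whether its reads began at that run was not tested.

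Library totals were 1264603 to 2303346 counts in old hets, 2074955 to 9645502 in old controls, 3113183 to 6794892 in young hets and 645460 to 1600995 in young controls. Total RNA mass and the number of cells behind each library are not given, so fewer cells of a type and less RNA per cell cannot be told apart. The 11 progenitor markers, Kit, Mpo, Gata1 and Cd34 among them, were present. Their summed level, in CPM (counts scaled to a common library total), was 6527 to 13657 in old hets, 6684 to 12503 in old controls, 7352 to 8196 in young hets and 3510 to 6812 in young controls. By this sum young controls lay wholly below young hets, but Mpo was its largest part and single markers went both ways. Mpo had 4479 to 5138 CPM in young hets and 1552 to 4427 in young controls, and Prtn3 982 to 1487 and 294 to 650. Ctsg had 336 to 453 CPM in young hets and 446 to 552 in young controls, and Fcgr3 106 to 154 and 144 to 189. The part of these differences in the results was not tested. Ly6a, which encodes Sca1, was at 0 in all young libraries and reached 69.8 CPM in 1 old control. Dendritic cell markers ran from 39.4 to 638 CPM in old controls and reached at most 51.3 CPM in any other group. Plasma cell markers ran from 0 to 49.0 CPM in old controls and reached at most 6.05 CPM elsewhere. Macrophage markers summed to 139 to 221 CPM in old hets, 87.5 to 215 in old controls, 234 to 418 in young hets and 22.0 to 225 in young controls. NK cell markers summed to 32.2 to 146, 78.3 to 147, 25.2 to 119 and 11.9 to 37.4 CPM in the same order. The part of all these markers in the results was not tested. Mature neutrophil markers summed to 2106 to 5601 CPM in old hets, 2170 to 5926 in old controls, 5860 to 12514 in young hets and 5413 to 11630 in young controls; their part in the results was not tested. Wt1 itself had 2 to 4 counts in old hets, 1 to 4 in old controls, 4 to 23 in young hets and 4 to 8 in young controls, and a 3' count cannot check a deletion elsewhere in the gene. Mitochondrial rRNA took 1.40% to 4.78% of the counts in old hets, 1.70% to 2.38% in old controls, 3.0% to 3.51% in young hets and 4.35% to 8.22% in young controls. The Y-linked gene Ddx3y was at 0 in each young het, in young control 3 and in old het 1, but 83 to 1457 counts in the other libraries. By this gene young control 3 stood with the young hets and not with young controls 1 and 2. Xist gave the same picture, at 616 to 2133 CPM in young hets and 1577, 3.04 and 1.70 CPM in young controls 3, 1 and 2. The sample numbers in the labels place it there too, 19 to 21 for the young hets and 18 for young control 3, against 29 and 30 for young controls 1 and 2. Its U3 level is given below, and counts without it and old control 1, the deepest library, stand at the end. By Ddx3y and Xist the groups also differed in sex: every young het lacked Ddx3y, every old control had it, and young controls and old hets were mixed. Sex is thus partly confounded with genotype in the young mice and with the age label. The part of sex in the results was not tested.

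The summed level of each class was highest in young controls. C/D box RNAs summed to 350 ± 71.8 CPM of all counts in old hets, 260 ± 57.8 in old controls, 256 ± 56.0 in young hets and 1198 ± 307 in young controls (SD, n = 3 each). H/ACA box RNAs summed to 392 ± 71.0, 259 ± 85.6, 366 ± 111 and 1053 ± 425 CPM in the same 4 groups. Spliceosomal RNAs summed to 1233 ± 289 CPM in old hets, 871 ± 266 in old controls, 1011 ± 145 in young hets and 3455 ± 1740 in young controls. In every class the lowest young control lay above the highest library of the other 3 groups, and the other 3 groups overlapped each other. No test is given for these sums. Member by member, the group mean was highest in young controls for 60 of the 86, in young hets for 11, in old controls for 8 and in old hets for 7. Other small RNAs that the name rule does not take, 47 rows of small Cajal body RNAs, snoU and snoZ rows, 7SK, Y RNA and the like, summed to 154 to 239 CPM in old hets, 111 to 165 in old controls, 103 to 134 in young hets and 250 to 392 in young controls.

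**Figure D1:**
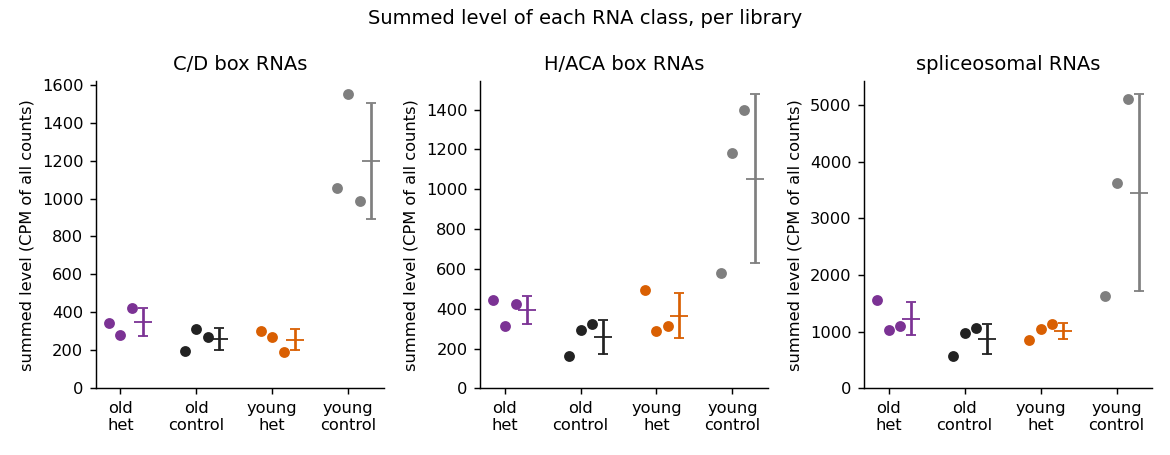
Summed level of the C/D box, H/ACA box and spliceosomal RNAs, in CPM of all counts (vertical axis), in each of 12 libraries by group (points), with the mean and SD beside them. The 3 young controls sit above all other libraries in each panel, at 989 to 1551 CPM for C/D box RNAs.

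A low-count filter left 45 members to test, 17 C/D box, 22 H/ACA box and 6 spliceosomal RNAs, among 10604 genes. Of these 45, 13 would not have passed the filter without the young control libraries, 3 without the young hets, 3 without the old controls and 3 without the old hets. These sets overlap: SNORA14, SNORA25, SNORD38, SNORD101 and Snord118 each needed the libraries of more than 1 group. The filter favoured such members being high in a group they needed, so counts and medians over the 45 describe them and support no direction. Among members named below, SNORD86, Snora20, Snora23 and Snord14a entered only through the young controls, SNORD20 only through the young hets and Snord89 only through the old controls, so the filter favoured the direction each of them shows. SNORA14, SNORA25, Snord15a, Snord65, Snord83b and Snord118 would not have entered without the young controls either, nor SNORD101 without the young hets or without the old hets. Changes are given as log2 with their SE from edgeR's quasi-likelihood test over all tested genes, with Benjamini-Hochberg adjusted p-values, and a member is called where the adjusted p is under 0.05. Levels of single members are in CPM on TMM-scaled totals. Young hets and old controls are each set against the same 3 young controls below, so those comparisons are not independent.

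In young mice, het progenitors had less U3, Snord49b, SNORD86 and SNORA36 than control progenitors. These 4 of 45 tested members were called, all lower, SNORD86 among them having entered the test only through the young controls, where 0.424% of all tested genes were called and 0.245% were called lower. Over the 86 members, the group mean was lower in young hets for 69 and higher for 14. Among the 45, 39 had a log2 change under 0, against 45.8% of all tested genes, and the median change was -1.61, against 0.08 over all tested genes. The groups did not overlap for 28 of the 45: young hets were lower for 27, where 7.12% of all tested genes were, and higher for 1, SNORD20, where 9.72% were.

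U3 had 90.4, 36.5 and 37.0 CPM in young hets, against 446, 583 and 554 CPM in young controls. All 3 young hets were low and the groups lay far apart, with young control 3 as high as the other young controls. The log2 change was -3.28 (SE 0.41, adjusted p = 0.00128). U3 stayed past the threshold without each library in turn, with adjusted p-values up to 0.0389. It also stayed past it with the share of mitochondrial rRNA in the model, at -2.94 (adjusted p = 0.0426).

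Snord49b, a methylation guide, had 129, 68.5 and 70.6 CPM in young hets, against 512, 731 and 250 CPM in young controls. The young hets were again all below the lowest control, and the log2 change was -2.48 (SE 0.47, adjusted p = 0.0289). SNORD86, whose human counterpart lies in an intron of NOP56, had 1.34, 4.35 and 5.46 CPM in young hets, against 83.5, 83.3 and 32.1 CPM in young controls, a change of -4.11 (SE 0.86, adjusted p = 0.0459). SNORA36, an H/ACA box RNA, had 29.6, 7.96 and 3.41 CPM in young hets, against 52.4, 112 and 178 CPM in young controls, a change of -3.10 (SE 0.64, adjusted p = 0.0459). All 3 of these calls depend on single libraries, and SNORA36 also lost its call when only the 2 young groups were fitted (adjusted p = 0.115). Snord49b lost its call without young het 2, young het 3, young control 1 or young control 2 (adjusted p 0.0532 to 0.156). SNORD86 lost it without young het 1, 2 or 3 or young control 1 or 2 (0.0817 to 0.175), and SNORA36 without young het 2, young het 3, young control 2 or young control 3 (0.0547 to 0.180). Mitochondrial rRNA shares did not overlap between young hets and young controls, and with that share in the model the changes of Snord49b, SNORD86 and SNORA36 were -1.25, -3.80 and -2.98, with adjusted p-values of 0.525, 0.459 and 0.410.

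Among the other C/D box RNAs, Snord13, which guides acetylation of 18S rRNA, had 8.74, 89.6 and 27.4 CPM in young hets, against 60.7, 93.5 and 29 CPM in young controls. Those groups overlapped and the change of -0.51 (SE 0.64) did not pass (adjusted p = 0.782). Snord104 and SNORD19B, the next most counted, stood at -1.44 (SE 0.60) and -1.95 (SE 0.80) and did not pass either, with adjusted p-values of 0.281 and 0.273. SNORD20 went the other way, with 10.1, 7.81 and 4.94 CPM in young hets, against 0.76, 0 and 0 CPM in young controls. Its change of 4.51 (SE 2.12) rests on few counts and did not pass (adjusted p = 0.346). SNORD101 had 18.8, 5.26 and 1.53 CPM in young hets, against 3.04, 3.40 and 0 CPM in young controls, at 2.04 (SE 1.44, adjusted p = 0.562). Snord118, the mouse U8 RNA needed for processing of the large-subunit rRNAs, was at 0 in all young hets, but among young controls it had counts only in young control 1, at 15.2 CPM.

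Of the 22 tested H/ACA box RNAs, SNORA36 alone was called in young mice. SNORA17, the most counted, had 50.4, 94.7 and 98.7 CPM in young hets, against 115, 216 and 254 CPM in young controls. These groups did not overlap, and the change was -1.26 (SE 0.44, adjusted p = 0.196). Snora7a had 74.9, 39.5 and 35.5 CPM in young hets, against 84.3, 398 and 87.9 CPM in young controls, at -1.91 (SE 0.60, adjusted p = 0.152). SNORA57 stood at -1.24 (SE 0.46, adjusted p = 0.226), SNORA5 at -0.97 (SE 0.45, adjusted p = 0.345) and SNORA42 at -1.31 (SE 0.79, adjusted p = 0.484). Snora33 had 27.2, 3.75 and 12.3 CPM in young hets, against 13.7, 6.80 and 4.59 CPM in young controls, so the groups overlapped, and its change was 0.77 (SE 1.18, adjusted p = 0.829), or -0.081 without young het 1.

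Snora23 and Snora20, whose sequences are shown above, are described because they had 0 counts in all 3 young hets, and both entered the test only because the young controls were high. Snora23 had 6.83, 23.8 and 37.4 CPM in young controls, so that it was at least 117-fold lower in young hets, with 3 counts summed over the group taken as the floor. Snora20 had 7.59, 11.9 and 20.6 CPM in young controls and was at least 69.1-fold lower on the same floor. Neither passed the test, with adjusted p-values of 0.0608 and 0.0861. The floor covers counting error only, and the young hets were sequenced more deeply than the young controls.

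None of the 6 tested spliceosomal RNAs was called in young mice, though 3 had an unadjusted p under 0.05, as did 14% of all tested genes. U1, which pairs with 5′ splice sites, had 544, 796 and 862 CPM in young hets, against 1540, 2548 and 3829 CPM in young controls. The groups were apart, and the change of -1.85 (SE 0.42) fell just short of the threshold (adjusted p = 0.0541). U4atac, of the minor spliceosome, had 152, 40.1 and 26.6 CPM in young hets, against 153, 830 and 334 CPM in young controls, at -2.59 (SE 0.60, adjusted p = 0.0559). U6, part of the catalytic centre, had 153, 160 and 169 CPM in young hets, against 180, 450 and 1056 CPM in young controls, at -1.81 (SE 0.46, adjusted p = 0.0806). U11 and U4 stood at -1.12 (SE 0.64) and -0.15 (SE 1.21), with adjusted p-values of 0.456 and 0.972.

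**Figure D2:**
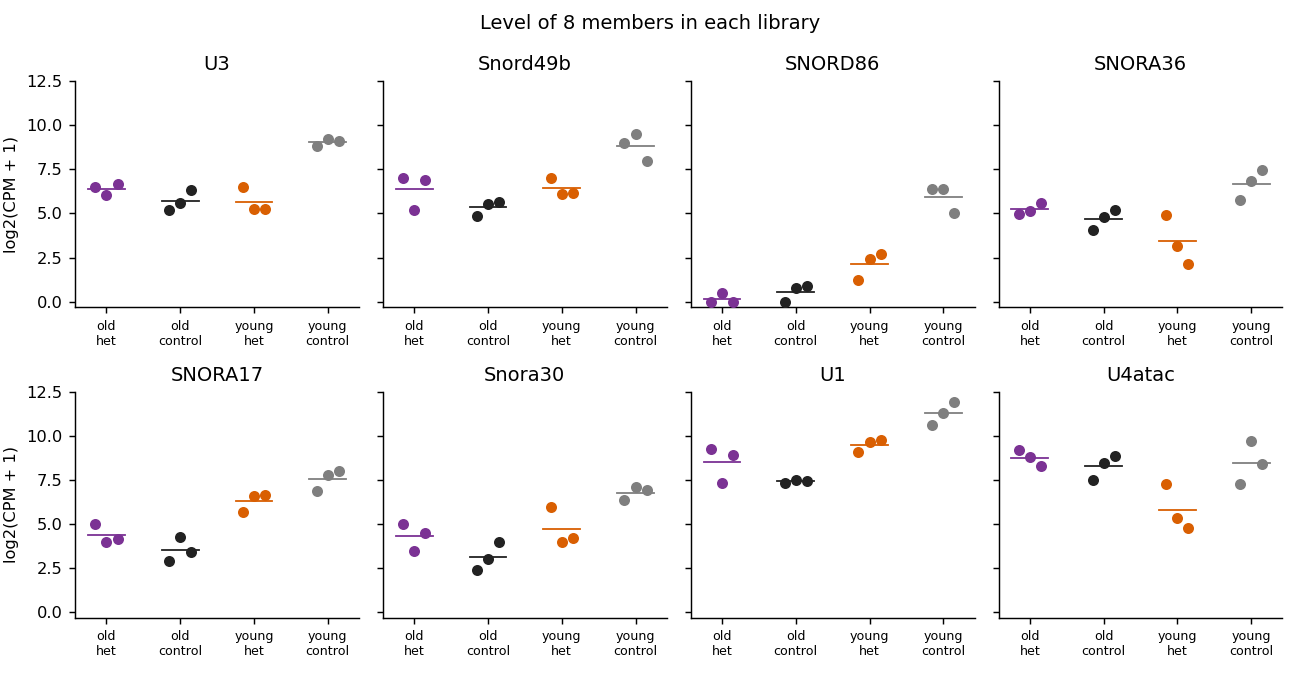
Level of 8 members as log2(CPM + 1) (vertical axis) in each library by group, with the group mean as a line. U3 lies highest in the 3 young controls, at 446 to 583 CPM, and SNORD86 is at or near 0 in all 6 old libraries.

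In old mice no member passed the test between het and control progenitors. 0 of 45 were called by edgeR's quasi-likelihood test, and 0% of all tested genes were; 6 members had an unadjusted p under 0.05, as did 3.58% of all tested genes, and DESeq2 and limma-voom called 0 as well. The changes were mostly above 0: 7 of the 45 lay under 0, against 53.2% of all tested genes, and the median was 0.62, against -0.05 over all tested genes. Old hets lay wholly above old controls for 2 members, SNORA57 and Snora68, where 5.15% of all tested genes did. U3 had 89.0, 65.7 and 99.8 CPM in old hets, against 35.0, 46.7 and 79.2 CPM in old controls. U1 had 623, 163 and 475 CPM in old hets, against 160, 183 and 173 CPM in old controls, so that old het 2 stood with the controls. The U1 change was 1.29 (SE 0.42) with an unadjusted p of 0.00577 and an adjusted p of 0.999.

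Snora68 had 9.70, 8.42 and 15.1 CPM in old hets, against 0.09, 2.36 and 3.54 CPM in old controls, and SNORA57 had 58.2, 28.9 and 47.3 CPM in old hets, against 11.5, 21.5 and 25.2 CPM in old controls. Their changes were 2.59 (SE 0.93) and 1.21 (SE 0.47), each with an adjusted p of 0.999. Snora62 showed the largest value, 2.97 (SE 1.36), on 3.23, 0.80 and 5.91 CPM in old hets, against 0, 1.18 and 0 CPM in old controls. SNORA25 showed the lowest, -3.51 (SE 1.81), on 0, 0 and 0.66 CPM in old hets, against 6.14, 0.24 and 1.33 CPM in old controls. SNORA14 stood at 2.18, and Snord65 and SNORA32 stood at -1.46 and -1.41; none of these passed.

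The het effect itself was tested for a difference between the ages, as the old effect minus the young one. 3 of the 45 members passed, U3, Snord49b and U1, all with the more positive effect in old mice, where 0.0849% of all tested genes passed. For U3 the het effect was 0.67 in old mice and -3.28 in young mice, a difference of 3.95 (SE 0.56, adjusted p = 0.0038). For Snord49b it was 1.20 in old mice and -2.48 in young mice, a difference of 3.68 (SE 0.65, adjusted p = 0.0228), and for U1 1.29 in old mice and -1.85 in young mice, a difference of 3.13 (SE 0.59, adjusted p = 0.0398). U3 passed without each of the 12 libraries in turn, with adjusted p-values up to 0.0299. Snord49b lost the call in 8 of those 12 fits, the ones without young het 2 or 3, young control 1 or 2, old het 1 or 3 or old control 1 or 3 (0.0507 to 0.144). U1 lost it in 9, all but those without young control 1, young control 3 or old het 2 (0.0698 to 0.166). With the mitochondrial rRNA share in the model none of the 3 passed: U3 stood at 3.39 (adjusted p = 0.750), Snord49b at 1.59 and U1 at 2.35 (adjusted p = 1 for both).

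**Figure D3:**
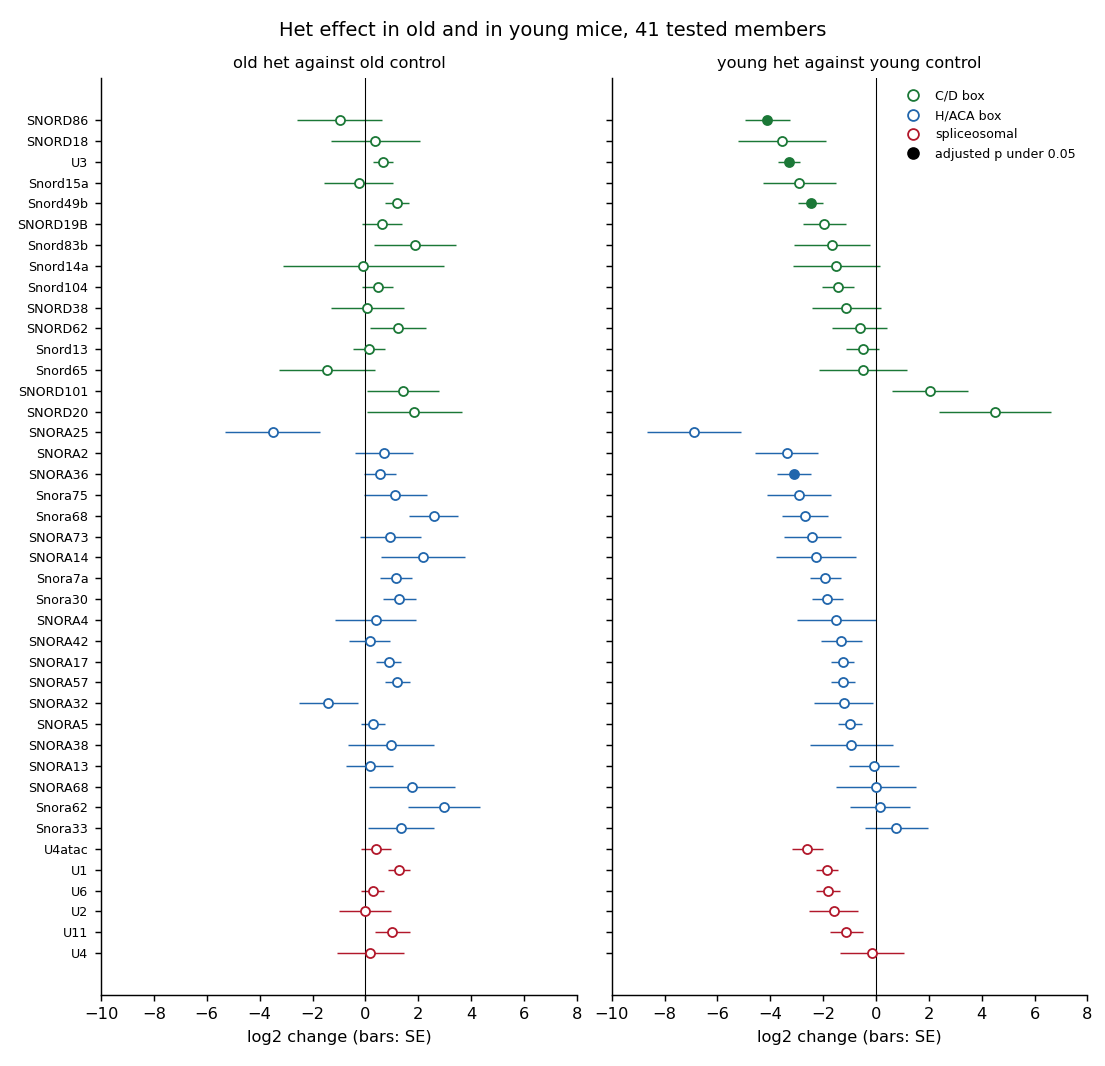
Het effect as log2 change with its SE (horizontal axis) in old mice (left) and young mice (right) for 41 tested members, one per row, coloured by class and filled where the adjusted p is under 0.05. The 4 members left out had 0 counts throughout a group; the 4 filled points, at -2.48 to -4.11, are all in young mice.

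Old control progenitors had less of 13 members than young control progenitors and more of 1. Of the 45 tested members 14 were called, against 6.98% of all tested genes, and 13 were called lower, against 4.19%. The 13 were 3 C/D box RNAs (U3, Snord49b and SNORD86), 8 H/ACA box RNAs (SNORA17, Snora30, SNORA57, Snora68, SNORA73, Snora62, SNORA36 and Snora7a) and 2 spliceosomal RNAs (U1 and U11). Old controls lay wholly below young controls for 27 members, where 12.2% of all tested genes did. The log2 change was under 0 for 40 of the 45, against 42.1% of all tested genes, with a median of -2.41 against 0.22 over all tested genes. Over all 86 members the mean was lower in old controls for 67 and higher for 18.

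U1 had 160, 183 and 173 CPM in old controls, against 1540, 2548 and 3829 CPM in young controls, at -3.94 (SE 0.46, adjusted p = 0.000121). The 3 old controls lay close together, far below the lowest young control. SNORA17 had 6.41, 18.2 and 9.73 CPM in old controls, against 115, 216 and 254 CPM in young controls, at -4.10 (SE 0.50, adjusted p = 0.000187). U3 had 35.0, 46.7 and 79.2 CPM in old controls, against the 446 to 583 CPM in young controls given above, at -3.31 (SE 0.42, adjusted p = 0.000231). Snord49b had 28.0, 44.6 and 50.0 CPM in old controls and fell by 3.61 (SE 0.49, adjusted p = 0.000588) relative to young controls. SNORD86, tested only because the young controls were high, had 0, 0.71 and 0.88 CPM in old controls, a change of -7.26 (SE 1.07, adjusted p = 0.000939).

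Snora30 had 4.21, 7.31 and 14.6 CPM in old controls, against 80.5, 134 and 122 CPM in young controls, at -3.74 (SE 0.64, adjusted p = 0.0019). SNORA57 stood at -2.50 (SE 0.49, adjusted p = 0.00467) and Snora68 at -4.28 (SE 0.97, adjusted p = 0.0115). Those 8 kept their calls without each library in turn. The other 6 of the 14 did not. SNORA73, the U17 RNA needed for 18S rRNA processing, had 0, 3.54 and 2.65 CPM in old controls, against 28.1, 51.0 and 32.9 CPM in young controls (-4.23, SE 1.19, adjusted p = 0.0376), and lost its call without young control 1 or 2 or any one old control. U11, which takes the place of U1 in the minor spliceosome, had 1.56, 13.7 and 19.9 CPM in old controls, against 77.4, 90.1 and 52.0 CPM in young controls (-2.69, SE 0.68, adjusted p = 0.0213), and lost it without young control 1 or 2 or old control 1 or 2.

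Snora62 (-4.86, SE 1.40, adjusted p = 0.0412) lost its call without young control 1 or 3 or old control 1 or 3. SNORA36 (-2.16, SE 0.62, adjusted p = 0.0402) lost it without young control 2 or 3 or any one old control, and Snora7a (-2.13, SE 0.60, adjusted p = 0.0391) without young control 2, old control 1 or old control 2, and when only the control groups were fitted (adjusted p = 0.0812). Without those libraries adjusted p-values reached 0.128 for Snora62, 0.162 for SNORA36, 0.283 for Snora7a, 0.0956 for SNORA73 and 0.0602 for U11. Snord89, which entered the test only through the old controls, was the member called higher: it had 14.3, 16.3 and 10.6 CPM in old controls and 0 counts in all 3 young controls, at least 14.7-fold higher on the floor of 3 counts for the group (adjusted p = 0.0474), and it lost its call without any one of the 6 libraries (0.0803 to 0.121) and with limma-voom (0.0602). U6 and U4atac, by contrast, stood at -1.10 (SE 0.45, adjusted p = 0.145) and -0.37 (SE 0.57, adjusted p = 0.733). Snord14a, which takes part in 18S rRNA processing, stood at -5.15 (SE 2.01, adjusted p = 0.125) on 0, 0 and 1.77 CPM in old controls, against 6.07, 10.2 and 33.6 CPM in young controls. SNORA13 and SNORA32 stood at 0.78 and 0.48, and neither passed. Mitochondrial rRNA shares of old and young controls did not overlap, and with that share in the model 0 of the 14 passed, the smallest adjusted p being 0.0558 for U1 (-3.35) and SNORA17 (-3.71).

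No member passed the test between old het and young het progenitors. 0 of 45 members were called by edgeR's quasi-likelihood test, and 0.00943% of all tested genes were; 11 members had an unadjusted p under 0.05, as did 6.28% of all tested genes, DESeq2 called 2 and limma-voom 0, and 1 was called when young het 1 was left out. Old hets lay wholly above young hets for 8 members, where 7.08% of all tested genes did, and wholly below for 4, where 6.95% did. The median change was 0.10, against 0.01 over all tested genes. U4atac had 579, 443 and 318 CPM in old hets, against 152, 40.1 and 26.6 CPM in young hets, so the groups were apart at 2.62 (SE 0.60, adjusted p = 0.312). SNORA17 went the other way, with 31.5, 14.8 and 17.1 CPM in old hets, against 50.4, 94.7 and 98.7 CPM in young hets, at -1.96 (SE 0.47, adjusted p = 0.371). SNORD86 had 0, 0.40 and 0 CPM in old hets, against 1.34, 4.35 and 5.46 CPM in young hets, at -4.13 (SE 1.27, adjusted p = 0.584). Snord89 was at 0 in all young hets and had 0, 24.0 and 4.60 CPM in old hets.

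The share of U1 among the spliceosomal counts did not overlap between the ages. U1 made up 38.9%, 17.2% and 42.3% of them in old hets and 31.8%, 20.3% and 17.6% in old controls, against 61.1%, 74.6% and 76.6% in young hets and 77.5%, 64.0% and 71.9% in young controls. U4atac shares did not overlap either, in the other direction. U4atac made up 36.2%, 46.8% and 28.3% in old hets and 36.5%, 39.6% and 47.7% in old controls, against 17.1%, 3.76% and 2.36% in young hets and 7.72%, 20.8% and 6.27% in young controls. These shares within a library do not depend on its total, but a share of U1 that is lower raises the other shares by itself, and no test is given. Left without U1, the summed spliceosomal level was higher in old hets than in young hets, by 1.49 on the log2 scale, and changed by -0.46 between old controls and young controls. U2, U5, U12 and U6atac together gave few counts; U2 had 2.02 to 21.4 CPM over the 12 libraries and its largest share was 0.984%.

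**Figure D4:**
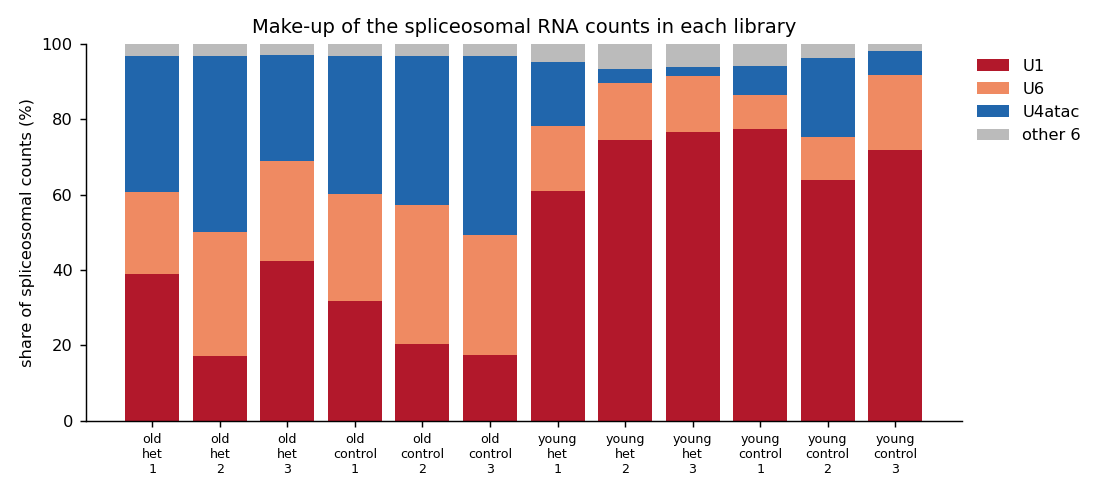
Share of the spliceosomal counts (vertical axis, percent) taken by U1, U6, U4atac and the other 6 members in each of the 12 libraries. U1 takes 17.2% to 42.3% in the old libraries and 61.1% to 77.5% in the young ones.

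For 14 members the gene that hosts them in GENCODE M21 was tested too, 13 hosts in all since 2410006H16Rik holds both Snord49b and Snord65. In young mice none of the 13 hosts was called, where 0.424% of all tested genes were. The median change of the 14 members was -1.87 in young hets relative to young controls and that of their hosts 0.07, and 12 of the 14 members lay below their own host. Among the 14, Snora20, Snora23, Snord14a, Snord15a, Snord65 and Snord83b would not have been tested without the young controls, nor Snord89 without the old controls. The filter thus favoured low values of the former relative to young controls, so these medians and counts support no direction. Snord89 is among the 12 although it had 0 counts in every young library, so its place below its host measures nothing. Snord14a is among them too, and its host Rps13 had 1 count summed over the young controls. The host of Snord49b, 2410006H16Rik, had 109, 164 and 184 CPM in young hets, against 178, 184 and 73.4 CPM in young controls, a change of 0.07 (SE 0.37, adjusted p = 0.951), whereas Snord49b itself stood at -2.48. Snora7a lies in Rpl32, a ribosomal protein gene that stood at 0.44 (SE 0.32, adjusted p = 0.575), and Snora30 in Srcap, a chromatin remodeller, at 0.03 (SE 0.36, adjusted p = 0.980).

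Between old and young controls 13 of the 14 members lay below their host, with medians of -3.18 for the members and 0.40 for the hosts. The same members needed the young controls to be tested, so these values support no direction either. The host change for Snord14a again rests on the 1 count of Rps13 in the young controls. Of the 13 hosts 1 was called, where 6.98% of all tested genes were. This was Rpsa, a ribosomal protein gene that holds Snora62. It had 190, 203 and 190 CPM in old controls, against 546, 354 and 573 CPM in young controls, at -1.34 (SE 0.33, adjusted p = 0.0189), and Snora62 stood at -4.86. Snora7a overlaps an exon of some transcript of its host, so reads of host and member cannot be told apart there, and no source used here gives the strand setting of the counting. Between each member and its host the difference of the changes was not tested.

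**Figure D5:**
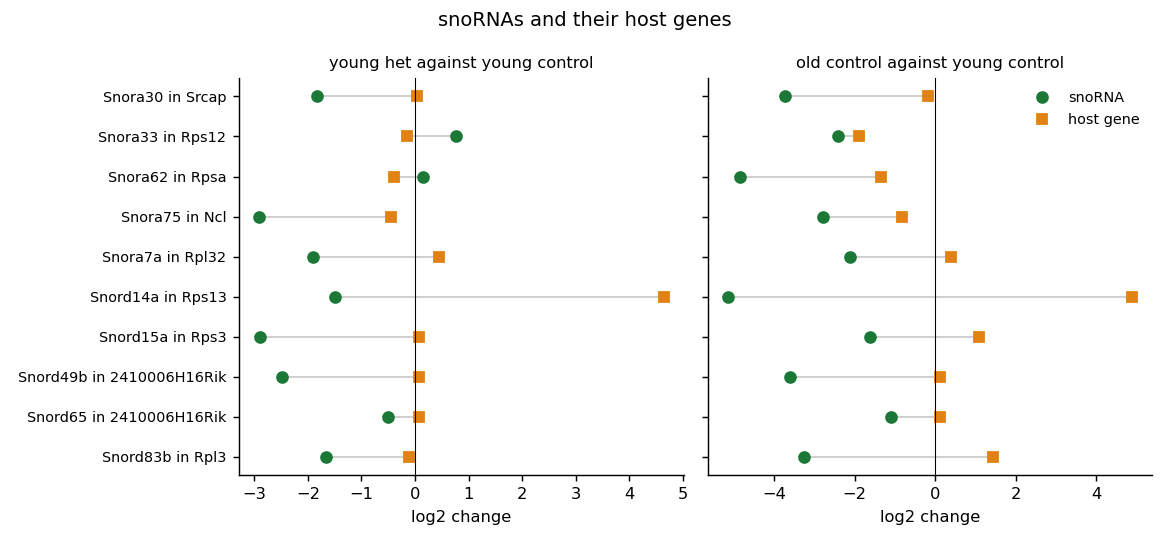
Log2 change (horizontal axis) of 10 snoRNAs (circles) and of the genes that hold them (squares), for young het against young control (left) and old control against young control (right); the 3 pairs whose snoRNA had 0 counts throughout a group, and 1 pair not reported here, are left out. Snord49b lies at -2.48 and -3.61, and its host 2410006H16Rik at 0.07 and 0.11.

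The proteins that bind, assemble and process these RNAs were looked at as 12 lists with 146 tested genes. In young hets relative to young controls 0 of the 146 were called by edgeR's quasi-likelihood test, where 0.424% of all tested genes were. An unadjusted p under 0.05 was found for 17, as for 14% of all tested genes, and nothing is read from that count. Among the C/D box core proteins Fbl, which encodes fibrillarin, stood at 1.0 (SE 0.45) and Nop58 at -1.10 (SE 0.36), with adjusted p-values of 0.316 and 0.165. Dkc1, which encodes dyskerin, stood at -0.85 (SE 0.38, adjusted p = 0.317). Wdr3 had the smallest p of the 29 genes of the U3 processome, at -1.12 (SE 0.32, adjusted p = 0.117). The medians were -0.43 for the C/D box core, -0.18 for the H/ACA box core, 0.06 for the U3 processome, 0.42 for snoRNP assembly and 0.44 for the Sm ring, against 0.08 over all tested genes. The smallest p-values of the remaining lists belonged to Znhit3, Snrpf, Snrnp70, Snrpb2, Sart3, Strap, Ints6, Xrn2 and Snhg5, with adjusted p-values of 0.0629 (Snrpf) to 0.806 (Snrnp70).

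Between old and young controls 9 of the 146 were called, against the 6.98% of all tested genes given above. Of all tested genes 4.19% were called lower and 2.79% higher. The count lies near the share over all genes, so the 9 are listed and nothing is read from their number. 7 were lower: Nop58 (-1.20, adjusted p = 0.0474), a C/D box core protein, Wdr3 (-1.42, adjusted p = 0.0117) of the U3 processome, Sf3a1 (-1.57, adjusted p = 0.00616) of the U2 particle, Ddx23 (-2.26, adjusted p = 0.00229) and Sart3 (-1.72, adjusted p = 0.0241) of the tri-snRNP list, the Integrator subunit Ints6 (-1.79, adjusted p = 0.0397) and the exosome nuclease Dis3 (-1.60, adjusted p = 0.0312). Snrpf, an Sm ring protein (6.15, adjusted p = 0.00545), and Snrpb2 of the U2 particle (1.12, adjusted p = 0.0474) were higher. In the comparison of old hets with old controls, of old hets with young hets and of the het effects between ages 0 of the 146 were called, with 6, 6 and 20 genes at an unadjusted p under 0.05. Of all tested genes 3.58%, 6.28% and 12.8% had such a p in the same comparisons, and nothing is read from these counts.

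Some rows cannot be assigned with certainty. SNORA68 and Snora68, SNORA33 and Snora33, SNORA2 and Snora2b, and SNORA74 and Snora74a stand in the table as separate rows of near-identical names, and reads shared between them could fall on either. Unlike Snora68, SNORA68 overlapped between old and young controls, at -2.05 (SE 1.65, adjusted p = 0.486 by edgeR's quasi-likelihood test). It also overlapped between old hets and old controls, at 1.75 (SE 1.62). U1, U2, U3 and U6 have many near-identical copies in the genome, and no source used here says whether their row sums those copies. The 41 members that did not pass the filter reached at most 26.7 CPM in any library, U6atac in young control 3, and are described by the sums and the directions of means alone.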

How the data were processed

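The authors deposited 1 table of raw counts per gene symbol for 12 libraries. The submitters' processing notes name the build mm9 and the tools DESeq2, HTSeq 0.6.1 and STAR 2.4; no source used here gives the annotation, the strand setting or the handling of multiply mapped reads. Per the labels' protocols the libraries were 3' mRNA-seq, so counts were not corrected for length, and intervals and floors cover counting error only.

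Groups came from the labels, which share no replicate numbers between groups, so no libraries were paired. Counts were tested with edgeR 4.0.16 in R 4.3.3 (quasi-likelihood F test, TMM scaling, filterByExpr with a minimum count of 10 and minimum total of 15) in 1 fit of the 4 groups (biological coefficient of variation 0.535), with Benjamini-Hochberg adjustment over 10604 genes at 0.05. The SE is the absolute log2 change divided by the square root of F. DESeq2 1.42.0, limma-voom (limma 3.58.1), other scalings and filters, fits of the compared groups only, a fit with the mitochondrial rRNA share and fits without single libraries were alternatives. The fit was also run on simulated data built around the overall mean of each gene, and no call here rests on that run. Hosts and sequences were matched by exact symbol to GENCODE M21 on GRCm38, another build than mm9, so no coordinates are used. The values of 1 host gene and 1 snoRNA sequence are not reported here.

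The members, lists and tests were chosen with earlier results of these data known. Members named are those called in any comparison, the 5 most counted of each class, the 3 largest rises and falls of each comparison, hosts of called members, and list genes called or with the smallest p in young mice. SNORA2, SNORA33, SNORA68, SNORA74, Snora74a, SNORD38, Snord15a, Snord83b, Fbl and the rarer spliceosomal RNAs were named after their values were seen.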

Additional observations from a re-analysis of the deposited data

Results flagged for a closer look

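3 results stand out because the het effect, tested as the old effect minus the young effect by edgeR's quasi-likelihood test, differed between the ages. For U3 the difference was 3.95 on the log2 scale (SE 0.56, adjusted p = 0.0038), for Snord49b 3.68 (SE 0.65, adjusted p = 0.0228) and for U1 3.13 (SE 0.59, adjusted p = 0.0398). Snord49b and U1 lost the call in 8 and 9 of the 12 fits without single libraries. Both also lost it with limma-voom (adjusted p = 0.0638 and 0.0735). None of the 3 passed with the mitochondrial rRNA share in the model. In old mice U3 had 65.7 to 99.8 CPM in hets and 35.0 to 79.2 CPM in controls, and in young mice 36.5 to 90.4 CPM in hets and 446 to 583 CPM in controls, so the young controls were the group that stood apart. Snord49b had 36.1 to 129 CPM in old hets and 28.0 to 50.0 CPM in old controls, and 68.5 to 129 CPM in young hets and 250 to 731 CPM in young controls. U1 had 163 to 623 CPM in old hets and 160 to 183 CPM in old controls, and 544 to 862 CPM in young hets and 1540 to 3829 CPM in young controls. The share of mitochondrial rRNA was also highest in young controls, at 4.35% to 8.22%, though old hets 1 and 3 reached 4.78% and 4.75%.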

How the results depend on the processing

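No paired analysis was possible because the groups share no replicate numbers. The count of called members in young het against young control, 4, became 15 with DESeq2, 12 with no filter on low counts, 1 with mitochondrial rRNA share in the model, and 8 when old control 1 and young control 3 were both left out; without single libraries it ran from 1 to 4. In old control against young control, 14 became 0 with that share in the model and 8 with both of those libraries left out, and ran from 8 to 11 without single libraries. In old het against young het, 0 became 2 with DESeq2 and 3 with no filter, and ran from 0 to 1 without single libraries. For the difference of the het effects, 3 became 10 with DESeq2, 1 with limma-voom, 11 with no filter and 0 with the mitochondrial share, and ran from 1 to 8 without single libraries (8 without old het 2, 5 without young control 3 or young het 1). In old het against old control it was 0 under every alternative run. The cause of these shifts was not tested.

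Of the class levels, the spliceosomal sum without U1 moved to -0.46 between old and young controls and to 1.49 between old and young hets; the other 118 values moved by less than the spread. 11 values of named members changed sign, none of them past the threshold after the change: Snora33 in young mice to -0.081 without young het 1 (range -0.081 to 1.36 without single libraries); Snora7a in old against young controls to 0.15 with the mitochondrial share; Snord14a in old against young hets to 1.22 without young het 1 (range -7.46 to 1.22); Snord65 in old mice to 0.97 with limma-voom; and, in the difference of the het effects, Snord65 to 2.21 with limma-voom, 0.42 with the mitochondrial share and 0.45 without old control 3 (range -5.50 to 0.45), SNORD101 to 0.21, 0.73 and 0.06 without old control 1 and young control 3 together, without young het 1 and without young control 3 (range -1.43 to 0.73), and SNORD20 to 0.87 without old control 2 (range -8.13 to 0.87). Another 617 values kept direction and side of the threshold, 88 kept direction but lost the call and 10 gained one. At 645460 counts, 3 counts are 5.10 CPM in the shallowest library, which limits what can be seen of the rarer members.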
